A study of Homo sapiens with 6 samples.

Results

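RBM10, RBM5 and RBM6 are 3 related RNA-binding proteins, and their transcripts were followed in PC9 cells in which RBM10 was targeted by an shRNA. The members were fixed by name as the targeted gene and its paralogs, and they are 3 of the 16306 genes and 30 of the 76563 RefSeq transcripts in the deposited tables. PC9 is a human lung adenocarcinoma line with an activating EGFR deletion. The groups were 3 PC9 samples with a negative control shRNA, sh-NC, and 3 with RBM10 knocked down by shRNA, shRBM10, and no other treatment, drug or time point is named for either group. The shRBM10 libraries are called A, B and C because only A can be matched to a replicate number. Which RBM10 shRNA was used is not named, all samples come from 1 cell line, and nothing in the labels says whether the 3 samples of a group came from separate cultures, so p-values measure the spread between these samples, which may be technical.

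RBM5, RBM6 and RBM10 carry RNA recognition motifs, zinc fingers, an OCRE domain and a G-patch, and act on pre-mRNA while the spliceosome assembles at the 3′ splice site. RBM10 is known mainly for promoting the skipping of cassette exons. It also acts on its own pre-mRNA and on that of RBM5, where skipping of exons yields transcripts removed by nonsense-mediated decay. RBM10 lies on the X chromosome and is recurrently mutated in lung adenocarcinoma, while RBM5 and RBM6 are neighbours in 3p21.3, a segment often lost in lung cancer. In GENCODE release 29 on GRCh38, RBM10 (Entrez gene 8241) spans chrX:47144869-47186813, RBM6 (Entrez gene 10180) chr3:49940007-50100045 and RBM5 (Entrez gene 10181) chr3:50088908-50119021, all on the plus strand. RBM6 and RBM5 overlap there by 11138 bases because some models read through from RBM6 into RBM5, whereas in RefSeq 11669 bases separate them.

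Among the places where the RBM10 transcripts of the table differ, 2 are shown here because transcript counts below are grouped by them. The first is a cassette exon of 231 bases, exon 4 at chrX:47171028-47171258, which is coding. It is present in the model that GENCODE pairs with both NM_001204467 and NM_005676 (930 codons) and in that of NM_001204468 (995 codons), and absent from those of NM_152856 (852 codons) and NM_001204466 (853 codons). The model of NM_001204468 also differs in 2 other exons, of 70 bases (chrX:47145447-47145516) and 339 bases (chrX:47186474-47186812). In the junctions below, read 5′ to 3′ from the GENCODE transcripts, capitals mark the first and last 15 bases of the cassette exon.
RBM10 exon 4 included, 5′ junction: gagcagagtgcggagGATTCCTACGAGGCC
RBM10 exon 4 included, 3′ junction: GCCACTGAGGATGACatccgtggccagctg
RBM10 exon 4 skipped: gagcagagtgcggagatccgtggccagctg
The second place is the donor of a later coding exon, where NM_001204466 holds 3 more bases (chrX:47180038-47180040, in capitals) than NM_152856. NM_001204467 and NM_005676 are separate RefSeq transcripts that the shared model does not tell apart. The study's frameshift list numbers each mutation 3 coding bases later in NM_005676 than in NM_001204467. It has the same offset for NM_001204466 over NM_152856. The 930 codons of the shared model therefore cannot hold for both. These most abundant forms are not part of the comparison at this donor, which covers only the less abundant NM_001204466 and NM_152856.
NM_001204466: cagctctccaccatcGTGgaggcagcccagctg
NM_152856: cagctctccaccatcgaggcagcccagctg

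RBM10 was lower in every shRBM10 library than in every sh-NC library. In sh-NC replicates 1 to 3 its estimated counts were 1578, 864 and 1628, and in libraries A, B and C they were 523, 537 and 700. After TMM normalization, which scales each library by a trimmed mean of its ratios to the others, the counts were 1431, 1183 and 1469 in sh-NC and 536.9, 514.5 and 672.3 in shRBM10. Thus both groups stood apart, and the highest shRBM10 library was C. The group means were 1361 ± 155.3 and 574.6 ± 85.39 (SD, n = 3 each), so that 42.2% of the sh-NC level remained (95% confidence interval 29.6 to 60.2% from the fit). By library, 39.5% remained in A, 37.8% in B and 49.4% in C.

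The log2 fold change of RBM10 was -1.24 (SE 0.23). Its adjusted p was 0.10 in the quasi-likelihood (QL) test of edgeR, adjusted over 12620 genes by the Benjamini-Hochberg method. RBM10 therefore did not pass the rule of an adjusted p under 0.05 with an absolute log2 fold change over 1, which 2 genes passed (0.0158% of those tested). It ranked at position 39 of all genes by p and had the 82nd largest fall in value. By an exact two-sided permutation test the separation of the groups gave p = 0.1, the smallest p that 3 against 3 allow, and 16.2% of the genes tested were lower in shRBM10 without overlap. DESeq2 called RBM10, with a log2 fold change of -1.26 and an adjusted p of 0.00154, among 4.72% of the genes it tested. Without sh-NC replicate 2, the QL test also called it (log2 fold change -1.42, adjusted p = 0.0487). In these bulk samples fewer cells that express a gene and less RNA per cell cannot be told apart.

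Library facts moved with these values. The totals lay between 16606390 and 18864243 counts, but sh-NC replicate 2 had a TMM factor of 0.738 against 1.03 to 1.08 in the other libraries, and without TMM its RBM10 level was 47.5 CPM (counts scaled to equal library totals), against 84.0 and 86.3 CPM in the other sh-NC replicates. RBM10 is rich in G and C (60.3%, percentile 84.2 of the genes tested), and each library's smooth trend on GC content stood, at the GC content of RBM10, at 0.11, 0.24 and 0.11 on the log2 scale in sh-NC and at -0.35, -0.22 and 0.12 in shRBM10 A, B and C. With these trends removed the log2 fold change was -0.96 and 51.6% of RBM10 remained. The corrected normalized counts were 1325, 1002 and 1359 in sh-NC and 682.4, 600.9 and 618 in shRBM10, still without overlap. How much of the RBM10 difference the GC trend accounts for was not tested. All 10 epithelial and lung adenocarcinoma markers were in the table, with a summed level of 33100 to 41000 CPM in sh-NC and 26700 to 37200 CPM in shRBM10. That sum came mostly from keratins (KRT7, KRT8, KRT18 and KRT19), while the lung markers NKX2-1, SFTPB and NAPSA were near 0, with at most 2, 3 and 17 counts in any library, and 8 of the 10 were tested. Retinas are named in the labels' extraction protocol, and of the retinal markers CRX had at most 3 counts in any library, PDE6B at most 1 count and NRL 64 to 115 counts. The leukocyte, fibroblast and endothelial markers each summed to 11.4 CPM or less in every library.

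**Figure D1:**
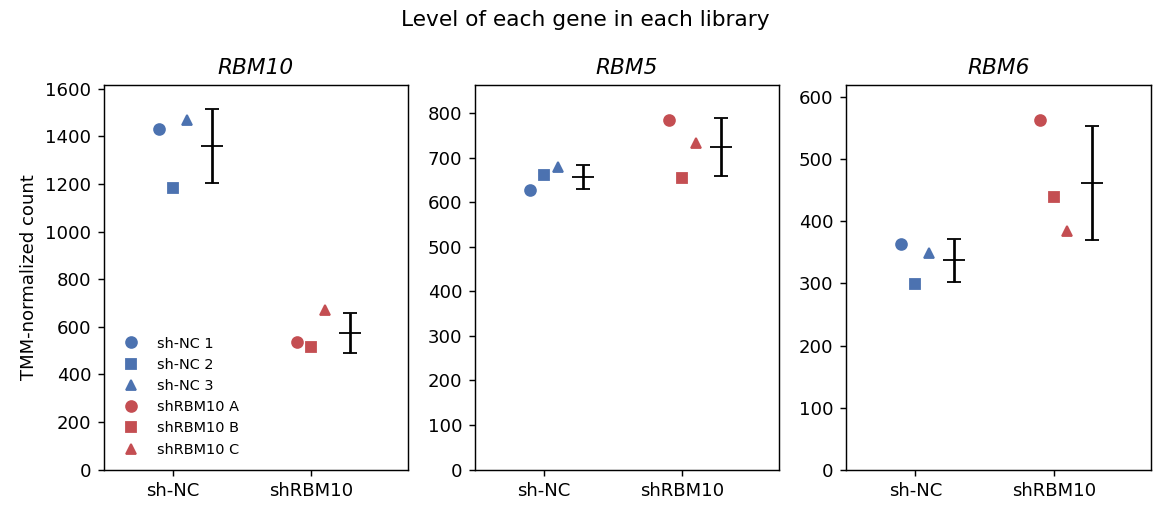
TMM-normalized count of RBM10, RBM5 and RBM6 (vertical axes, each from 0) in the 3 sh-NC and 3 shRBM10 libraries, with the mean and SD of each group in black. RBM10 lies at 1183 to 1469 in sh-NC and at 514.5 to 672.3 in shRBM10, the RBM5 groups overlap, and the RBM6 groups lie next to each other without overlap.

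RBM5 did not pass the test. Its estimated counts were 692, 483 and 753 in sh-NC and 764, 683 and 762 in shRBM10, and its normalized counts were 627.6, 661.4 and 679.5 against 784.3, 654.4 and 731.9. The groups overlapped, because library B lay below 2 of the 3 sh-NC replicates. The means were 656.2 ± 26.35 and 723.5 ± 65.37 (SD, n = 3 each), and the log2 fold change was 0.14 (SE 0.22, adjusted p = 0.683 in the edgeR QL test). The 95% confidence interval of the RBM5 log2 fold change, -0.34 to 0.63, leaves room for a difference in either direction, and the exact permutation test gave p = 0.3.

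RBM6 was higher in every shRBM10 library than in every sh-NC library but did not pass the test either. It had estimated counts of 401, 218 and 387 against 549, 459 and 400. The normalized counts were 363.7, 298.5 and 349.2 against 563.6, 439.8 and 384.2, with library A the highest and library C only just above the sh-NC replicates. The means were 337.1 ± 34.22 in sh-NC and 462.5 ± 91.85 in shRBM10 (SD, n = 3 each). The log2 fold change of RBM6 was 0.46 (SE 0.26, 95% confidence interval -0.12 to 1.03, adjusted p = 0.282 in the edgeR QL test). A separation in this direction was found for 13.8% of the genes tested (exact permutation test for RBM6, p = 0.1). With the GC trends removed the log2 fold change was 0.32. RBM5 and RBM6 have GC contents of 49.3 and 47.8%, near the median of the genes tested (49.3%).

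Levels can be compared between genes only per transcript length, for which the authors' TPM values were read in the 4 libraries whose columns match a sample title. In sh-NC replicates 1 to 3, RBM10 had 33.7, 14.07 and 35.2 TPM, RBM5 had 15.65, 8.34 and 17.24 TPM, and RBM6 had 12.02, 5.22 and 11.95 TPM. RBM10 was thus the most abundant of the 3 in each sh-NC library, followed by RBM5 and then RBM6, and all were lowest in replicate 2. In shRBM10 library A RBM10 was the least abundant of the 3, with 12.89 TPM against 19.02 for RBM5 and 17.46 for RBM6. RBM10 made up 54.9, 50.9 and 54.7% of the summed TPM of the 3 genes in sh-NC and 26.1% in library A. TPM was read for only 1 shRBM10 library, so the difference has no replicate check and the order in B and C was not examined. By counts, library A also had the highest log2 ratio of RBM6 to RBM10, at 0.07 against -0.23 in B and -0.81 in C.

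Ratios of counts within a library do not depend on its scaling. They can depend on the mix of long and short transcripts of a gene, which for RBM6 differed between libraries, as described below. How much of the RBM6 ratios this mix accounts for was not tested. The log2 ratio of RBM5 to RBM10 counts was -1.19, -0.84 and -1.11 in sh-NC and 0.55, 0.35 and 0.12 in shRBM10 A, B and C. RBM10 thus had more counts than RBM5 in all 3 sh-NC libraries and fewer in all 3 shRBM10 libraries. The difference in this log2 ratio was 1.39 (exact permutation test, p = 0.1, the smallest possible). The log2 ratio of RBM6 to RBM10 moved further, from -1.98, -1.99 and -2.07 to 0.07, -0.23 and -0.81, a difference of 1.69 (exact permutation test, p = 0.1). Between the paralogs themselves the log2 ratio of RBM6 to RBM5 was -0.79, -1.15 and -0.96 in sh-NC and -0.48, -0.57 and -0.93 in shRBM10, so that the groups overlapped (difference 0.31, exact permutation test, p = 0.2). With the GC trends removed, the 3 differences were 1.06, 1.27 and 0.21. Both ratios to RBM10 contain the targeted gene, so they are not separate evidence about RBM5 or RBM6.

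**Figure D2:**
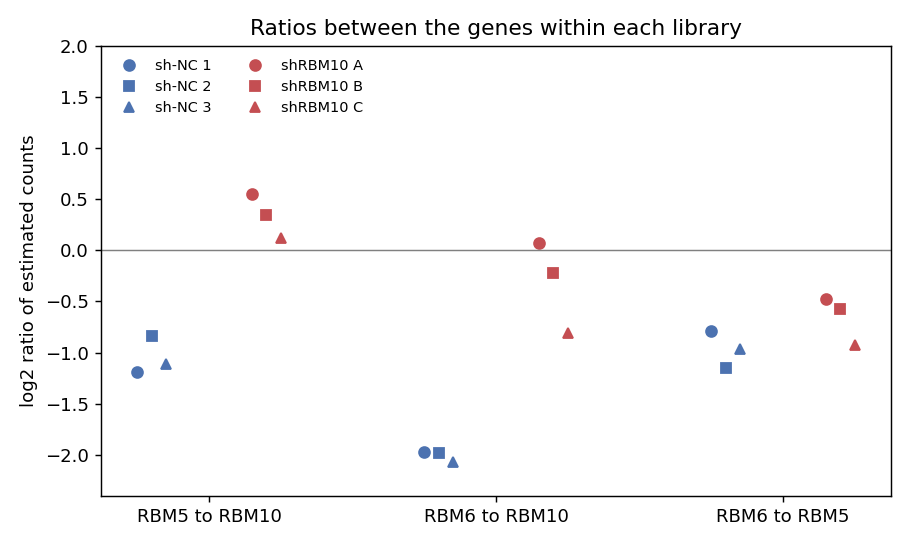
Log2 ratio of estimated counts between each pair of the 3 genes within each library (vertical axis), with sh-NC in blue and shRBM10 in red. Both ratios to RBM10 are higher in the shRBM10 libraries without overlap, by 1.39 and 1.69 on average, while the RBM6 to RBM5 ratios overlap.

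The transcript table splits RBM10 into 11 transcripts, of which 5 curated ones had a mean estimated count of at least 10 and held 96.3 to 100% of the gene's counts in every library. The other 6 are predicted models with at most 3.71% of the counts of any library. Counts of transcripts are estimates of how reads shared between models are divided, and RBM10 estimates were not whole numbers in any library, whereas those of RBM5 and RBM6 were whole in 6 of 6 at gene level. The table holds only coding models (NM and XM) of the 3 genes, so noncoding and decay-bound transcripts were not analysed here. Of the 30 transcripts, 9 are paired with a GENCODE model.

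All 5 of these RBM10 transcripts had lower means in shRBM10, and for 3 of them the groups did not overlap. NM_001204467, the most abundant, had normalized counts of 544.3 ± 53.34 in sh-NC and 259.9 ± 53.01 in shRBM10 (SD, n = 3 each), so 47.8% remained. NM_005676 was at 374 ± 60.78 and 127.7 ± 31.67, with 34.2% remaining, and NM_001204466 was at 83.22 ± 16.95 and 35.74 ± 12.85, with 43.0% remaining. For NM_152856 (173.2 ± 40.05 against 95.79 ± 47.13, 55.3% remaining) and NM_001204468 (157.5 ± 88.45 against 51.34 ± 14.02, 32.6% remaining) the groups overlapped. The share of all tested transcripts that were lower in shRBM10 without overlap was 10.1%. None of the 5 passed edgeR's test over 38286 transcripts, with adjusted p-values between 0.368 and 0.609, and that test called 0 transcripts (0%), while 1998 transcripts passed these limits before adjustment. DESeq2 called NM_001204467 (log2 fold change -1.06, adjusted p = 0.00502) and NM_005676 (log2 fold change -1.54, adjusted p = 0.000188), among 1.96% of the transcripts it tested.

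The shares of each of the 5 RBM10 transcripts overlapped between the groups. Transcripts with the 231-base exon, whose junctions are printed above, made up 82.5, 80.2 and 79.5% of the 5 in sh-NC and 82.0, 80.1 and 70.3% in shRBM10 A, B and C. The Wilson 95% interval for library C, 66.8 to 73.7%, lies below those of the other 5 libraries, which run from 76.5 to 85.1%, and such intervals cover counting error only. The means were 80.7 ± 1.60% and 77.4 ± 6.29% (SD, n = 3 each; exact permutation test, p = 0.6), and without library C the difference of -3.30 percentage points became 0.29. The 3 transcripts with the exon were reduced to 40.8% of their sh-NC mean and the 2 without it to 51.3%. Among those 2, NM_001204466, with the 3 further bases at the donor, made up 40.5, 30.8 and 26.8% in sh-NC and 21.7, 41.1 and 22.7% in shRBM10, so the groups overlapped (exact permutation test, p = 0.6). In edgeR's test of transcript usage, which compares each transcript's change with that of its gene, RBM10 had an adjusted Simes p of 1 and ranked at position 4129 of 8348 genes, of which 8 (0.0958%) passed an adjusted p under 0.05.

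**Figure D3:**
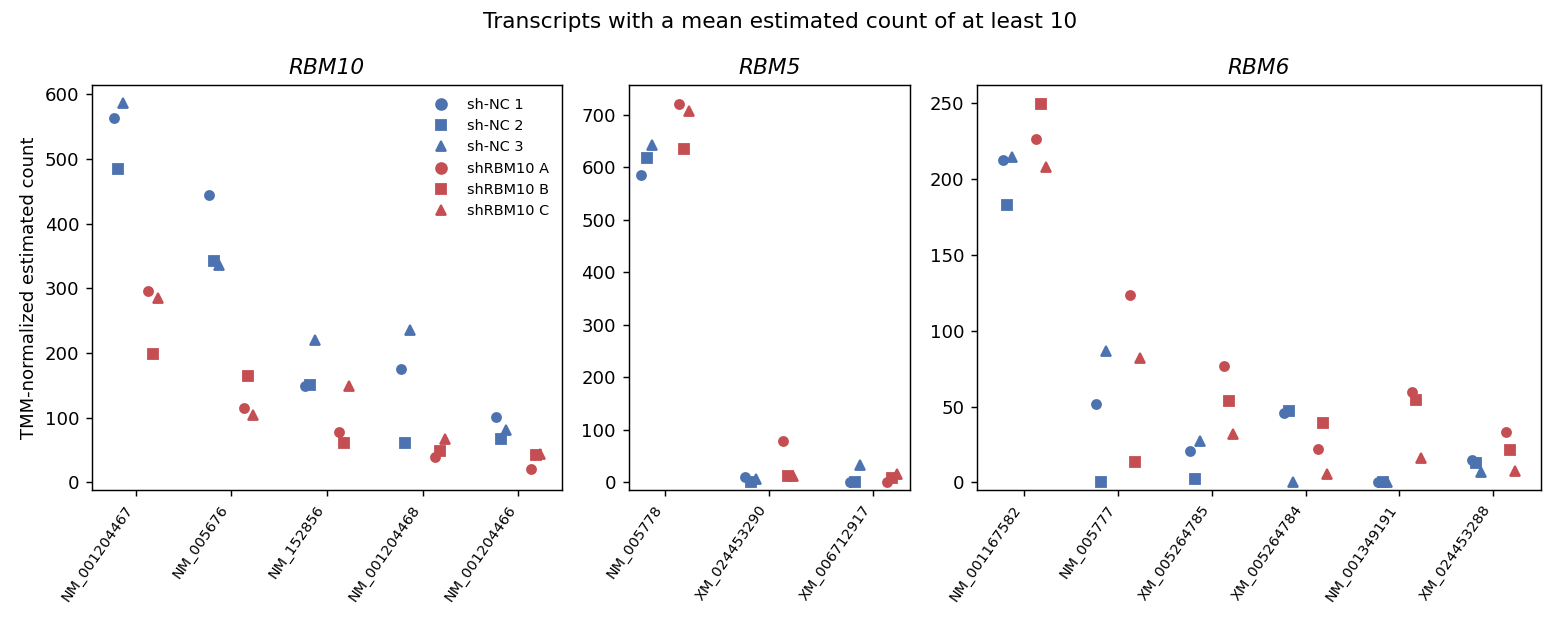
TMM-normalized estimated count (vertical axes, 1 scale per gene) of the 14 transcripts of RBM10, RBM5 and RBM6 with a mean estimated count of at least 10, in sh-NC (blue) and shRBM10 (red) libraries. The 5 RBM10 transcripts have lower means in shRBM10, RBM5 is nearly all NM_005778, and the RBM6 transcript NM_001349191 is listed at 0 in the 3 sh-NC libraries and at 16.4 to 59.8 in shRBM10.

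RBM5 was represented almost entirely by 1 transcript, NM_005778 (815 codons), which held 92.7, 100 and 94.4% of its counts in sh-NC against 90.1, 95.2 and 96.3% in shRBM10. Its normalized counts were 615.4 ± 28.24 and 687.8 ± 46.18 (SD, n = 3 each; log2 fold change 0.16, adjusted p = 0.824 in the edgeR QL test). The predicted transcript XM_024453290 had 10.65, 0 and 6.57 estimated counts in sh-NC against 75.68, 13.23 and 11.58 in shRBM10. It was highest in library A by a wide margin, and libraries B and C were close to sh-NC replicate 1 (adjusted p = 0.646 in the edgeR QL test). The third, XM_006712917, was at 0 in several libraries and was not tested, and the other 4 listed transcripts held at most 5.80% of any library's RBM5 counts. In the test of transcript usage RBM5 had an adjusted Simes p of 1.

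The counts of RBM6 were spread over more transcripts than those of RBM5 or RBM10. Of its 12 listed transcripts 6 had a mean estimated count of at least 10, and the other 6 held up to 11.9% of a library's RBM6 counts. The most abundant was NM_001167582, a short coding form of 601 codons, against 1123 codons for NM_005777. Its estimated counts were 232.76, 142.67 and 238.43 in sh-NC and 216.35, 256.07 and 216.1 in shRBM10. Its normalized count was 203.6 ± 17.76 in sh-NC and 228.1 ± 20.88 in shRBM10 (SD, n = 3 each; log2 fold change 0.16, adjusted p = 0.877 in the edgeR QL test). Its share of RBM6 was 58.0, 65.4 and 61.6% in sh-NC and 39.4, 55.8 and 54.0% in shRBM10 A, B and C. The shares did not overlap (61.7 ± 3.70% against 49.7 ± 8.99%, exact permutation test, p = 0.1), a separation in this direction that 6.57% of all transcripts tested for usage showed. The total behind these shares includes NM_001349191, estimated at 0 in sh-NC and at 10.4, 12.1 and 4.3% in shRBM10 A, B and C. That transcript passed the low-count filters only through shRBM10, as described below, so the separation of shares is a description. Whether the separation remains without that transcript was not tested. Library A was the lowest, and without it the difference fell from -12.0 to -6.79 percentage points.

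NM_001349191, a curated RBM6 transcript, was listed at 0 in all 3 sh-NC libraries and had 56.96, 55.72 and 17.26 estimated counts in shRBM10 A, B and C. These were 10.4, 12.1 and 4.32% of the RBM6 counts of those libraries, while a count of 0 (which allows up to 3 counts) allows at most 0.748, 1.38 and 0.775% in sh-NC, for counting error only. It passed the filters on low counts only through the shRBM10 libraries, so it had to be higher there, and its values and tests are given as a description. Set against a floor of 3 counts in each sh-NC library, its mean normalized count of 43.59 in shRBM10 was 14.1-fold higher, with 16.38 in library C. This fold is no lower bound, because the floor holds for counted reads and the 0 is an estimate. It did not pass edgeR's test over all transcripts (adjusted p = 0.369), and DESeq2, which called 1.96% of transcripts, called it (adjusted p = 0.000639). Across all genes, 10.4% of the transcripts tested were higher in shRBM10 without overlap. Its adjusted p in edgeR's test of usage was 0.270, the smallest of the member transcripts, and RBM6 as a gene had an adjusted Simes p of 0.378 at position 89 of 8348. That gene value rests on NM_001349191 and is not separate evidence. In the same test its unadjusted p was 0.000672, and the next smallest of an RBM6 transcript was 0.346. A value of 0 here is an estimate among overlapping models and need not mean that no read fell on the transcript.

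The other RBM6 transcripts varied widely within groups. The long form NM_005777 had 57.14, 0 and 96.17 estimated counts in sh-NC against 117.9, 13.97 and 84.8 in shRBM10, so its share ran from 0 to 24.9% within sh-NC alone. XM_005264785 had 23.34, 2.35 and 29.69 in sh-NC and 72.83, 55.04 and 32.85 in shRBM10, without overlap but with an adjusted p of 0.634 in edgeR's test. XM_005264784 and XM_024453288 overlapped between the groups and had adjusted p-values of 0.954 and 0.827 in the same test. The 6 curated RBM6 transcripts together held 81.4 ± 6.50% of its counts in sh-NC against 75.6 ± 7.16% in shRBM10 (SD, n = 3 each; exact permutation test, p = 0.4).

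**Figure D4:**
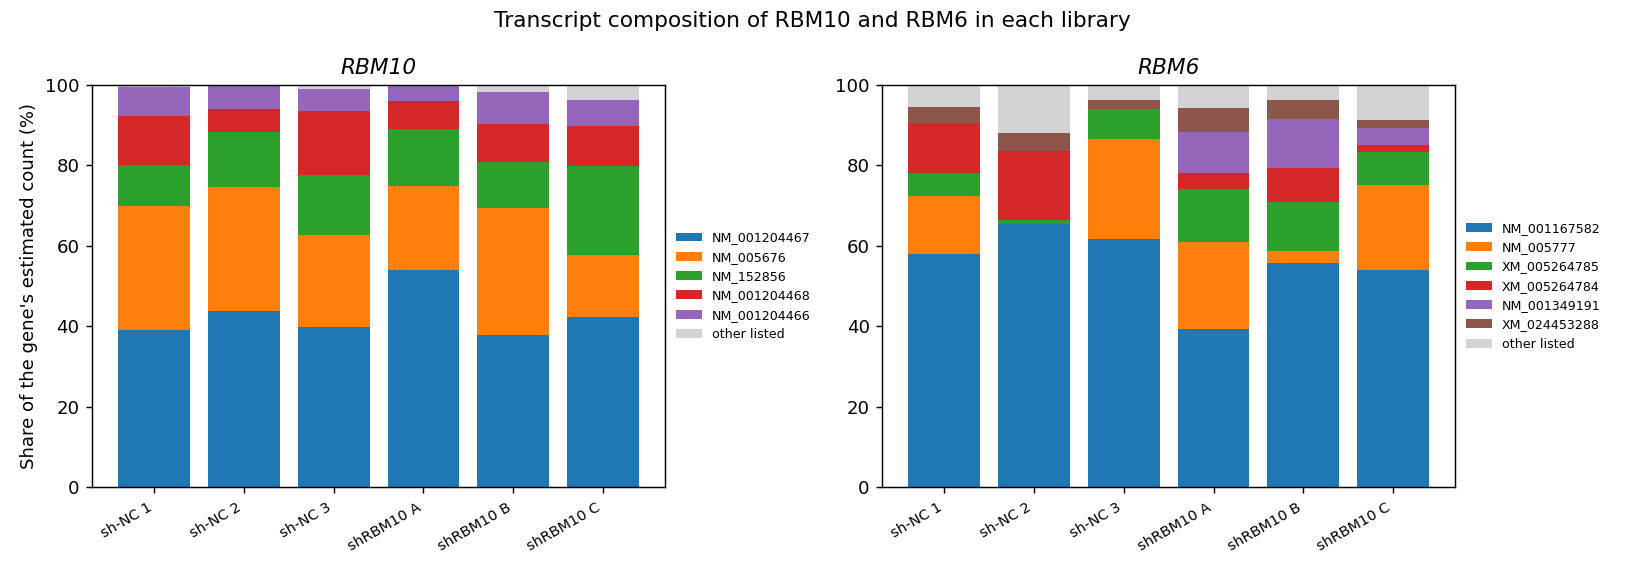
Share of the estimated count of RBM10 (left) and RBM6 (right) held by each named transcript in each library, in percent, with all other listed transcripts in grey. In RBM10 NM_001204467 is the largest part in every library, and in RBM6 NM_001167582 holds 58.0 to 65.4% in sh-NC and 39.4 to 55.8% in shRBM10.

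The sequences bear on how the 3 genes can be told apart by reads and primers. The longest stretch shared without a mismatch by GENCODE transcripts of RBM10 and RBM5 was 22 bases, and by those of RBM10 and RBM6 14 bases. GENCODE transcripts of RBM5 and RBM6 share 457 bases through the readthrough models. The counts here are over RefSeq transcripts, and in RefSeq 11669 bases separate these genes. Their gene counts were whole numbers in 6 of 6 libraries, and whether any read was shared between them was not tested. The primer pair that the study's qRT-PCR list gives under RBM10 was matched against all 206694 GENCODE transcripts, and is shown because it bears on which of the paralogs it measures.
Forward primer: gcacgactataggcatgacat
Reverse primer: agtcaaacttgtctgctcca
Both primers matched exactly in 3 transcripts, all of them RBM5 and none RBM10. In the RBM5 model of NM_005778 the forward primer lies in exon 4 (chr3:50093788-50093808) and the reverse primer, on the opposite strand, spans the junction of exons 8 and 9 (within chr3:50104292-50105079), giving a product of 380 bases. The closest stretch in any RBM10 transcript had 9 mismatches to the forward and 7 to the reverse primer. The sequencing counts above do not use these primers, and no qRT-PCR value was analysed here.

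The levels of other genes were described from lists of related function or position. The first holds 20 other proteins with a G-patch or an OCRE domain, of which 11 were higher and 9 lower, with a median log2 fold change of 0.07 against 0.03 over all genes tested. The edgeR QL test called 0 of the 20. With the same fold limit and an unadjusted p under 0.05 there was 1 higher and 2 lower, where 10.1% of all genes were higher and 1.53% lower. The smallest p-values were those of PINX1, a nucleolar protein that binds telomerase (log2 fold change -1.06, SE 0.31), GPANK1 (-1.04, SE 0.34) and AGGF1, which has a G-patch and an OCRE domain (1.39, SE 0.46). An unadjusted p under 0.05 was found for 4 of the 20, against 24.3% of all genes. DESeq2, which called 4.72% of all genes it tested, called PINX1 and AGGF1.

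The second list holds 23 proteins of the 3′ splice site and U2 snRNP, the step at which RBM5 and RBM10 act. Of these, 8 were higher and 15 lower, with a median log2 fold change of -0.28, and 0 were called by edgeR. At the unadjusted rule 3 were higher and 1 lower, where 10.1% of all genes were higher and 1.53% lower, and 9 had an unadjusted p under 0.05, against 24.3% of all genes. U2AF2, which binds the polypyrimidine tract, was at 15720 ± 1183 in sh-NC and 7929 ± 1721 in shRBM10 (log2 fold change -0.99, SE 0.26, adjusted p = 0.146 in the edgeR QL test). SF3B1, the U2 snRNP subunit at the branch point, was at 653.6 ± 319.7 and 2041 ± 1207, with overlapping groups (log2 fold change 1.64, SE 0.52). PHF5A, its partner in SF3b, was at 2260 ± 1360 and 1038 ± 107.8 (log2 fold change -1.12, SE 0.37). DESeq2, which called 4.72% of all genes, called U2AF2 and SF3B1.

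Nonsense-mediated decay and the exon junction complex were represented by 16 genes, of which 6 were higher and 10 lower, with a median of -0.08 on the log2 scale. With edgeR 0 passed the adjusted or the unadjusted rule, and DESeq2 called 0, against 4.72% of all genes it tested. In edgeR 1 had an unadjusted p under 0.05, against 24.3% of all genes tested. That was SMG9, a subunit of the SMG1 kinase complex (log2 fold change -0.54, SE 0.22). SMG5, which acts after UPF1 is phosphorylated, had a log2 fold change of -0.50 (SE 0.23), and CASC3, a core protein of the exon junction complex, -0.43 (SE 0.21).

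The neighbours of each locus were read in the same way. Of 13 genes around RBM10 on Xp11, 11 were tested, and 3 were higher and 8 lower, with a median of -0.29 on the log2 scale. The smallest p-values were those of the 3 higher ones. These were RP2 (log2 fold change 1.42, SE 0.38), the histone demethylase gene KDM6A (1.23, SE 0.49) and JADE3 (0.85, SE 0.38), of which DESeq2 called RP2. The lowest value among these neighbours was -0.50, so the RBM10 log2 fold change of -1.24 lay below all of them. Of 21 genes around RBM5 and RBM6 on 3p21.3, 17 were tested, and 2 were higher and 15 lower, with a median of -0.41 against 0.14 for RBM5 and 0.46 for RBM6. The smallest p-values there were those of TRAIP, a ubiquitin ligase (log2 fold change -1.22, SE 0.35), ZMYND10 (-1.22, SE 0.34) and the tumour suppressor RASSF1 (-0.90, SE 0.29), of which DESeq2 called TRAIP. The edgeR QL test called 0 genes in both neighbourhoods, and without adjustment, at the same limits, 2 genes were higher on Xp11 and 2 lower on 3p21.3, where 10.1% of all genes were higher and 1.53% lower. An unadjusted p under 0.05 was found for 2 of the 11 and 6 of the 17, against 24.3% of all genes. The DESeq2 calls, 1 in each neighbourhood, stand beside 4.72% of all genes it tested. Of all 12620 genes tested, 6514 had a log2 fold change above 0. The GC trends were not removed from the values of these lists and neighbourhoods, and how much of them the trends account for was not tested.

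Genes with a pattern over the 6 libraries most like that of each member were found among the 11064 other genes with a mean count of at least 50, by the root mean square difference of centred log2 levels. For RBM10 these were PTPRH, SLC1A4, TOB2, SYBU and AREG, at 0.05 to 0.13 on the log2 scale, with log2 fold changes of -1.29 to -1.03. For RBM5 they were KPNA6, RBMS2, PAQR5, CDYL and RPRD1B, at 0.04 to 0.06, and for RBM6 STAM, DNAJC24, FBXW2, SMAP1 and SKP2, at 0.04 to 0.07. With 6 libraries many genes can lie this close, and the measure is a description.

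**Figure D5:**
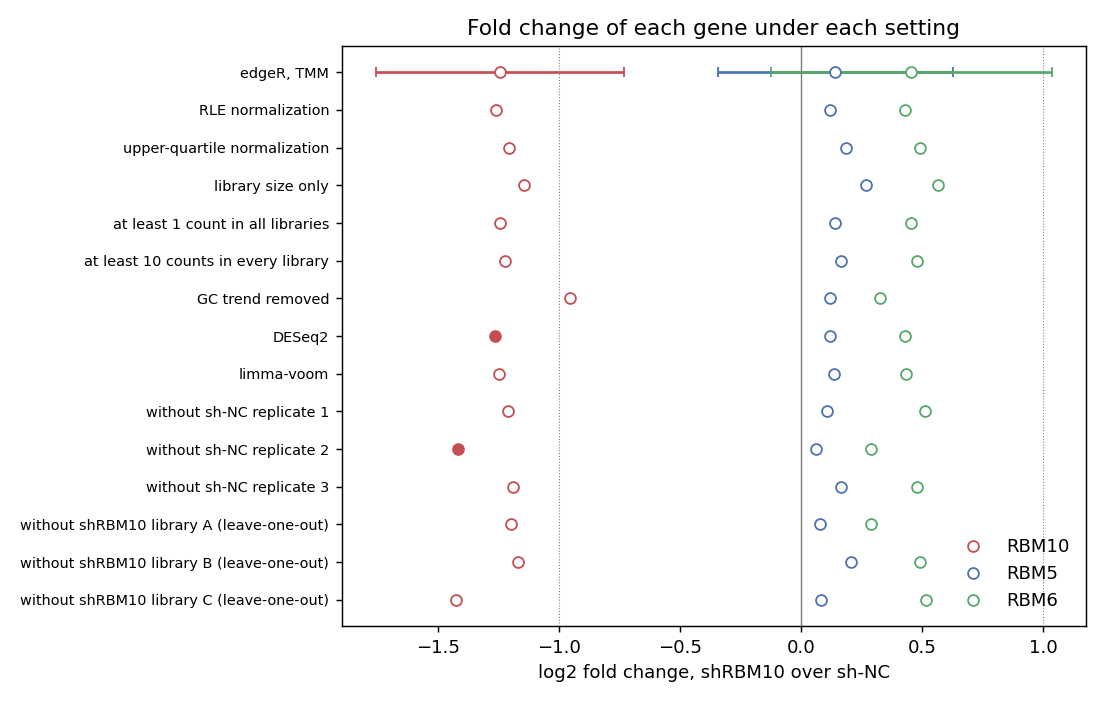
Log2 fold change of RBM10, RBM5 and RBM6 in shRBM10 over sh-NC (horizontal axis) under each analysis setting (rows). Filled points pass an adjusted p under 0.05 with an absolute log2 fold change over 1, and bars on the first row are 95% confidence intervals. RBM10 runs from -1.43 to -0.96 and is filled for DESeq2 and without sh-NC replicate 2, RBM5 from 0.06 to 0.27 and RBM6 from 0.29 to 0.56.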

How the data were processed

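Total RNA of 3 sh-NC and 3 shRBM10 PC9 samples was sequenced (BGI-Tech). For each gene and each RefSeq transcript the authors deposited an estimated count, an FPKM, a TPM and a normalized count. The aligner, counting tool and annotation are not given in the sources used here, and the submitters' processing notes name hg38. The protocol text names retinas and a pair of library kits, without assigning a kit to a library. The deposited TPM of sh-NC replicates 1 to 3 and shRBM10 library A were used for levels per length, and the deposited estimated counts, rounded, for tests. Both tables hold 14 other columns of samples and 8 of the authors' group means, which were not used.

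In R 4.3.3, edgeR 4.0.16 (filterByExpr, TMM, then the quasi-likelihood test glmQLFTest) was run on genes and on transcripts, and its diffSpliceDGE on transcript usage. Every fit held the 6 libraries without covariates, and the scripts were first tested on simulated data. The alternatives were DESeq2 1.42.0, limma-voom (limma 3.58.1), RLE, upper-quartile or no scaling, other filters on low counts, removal of each library's lowess trend (span 0.3) on GC content (found for 99.5% of tested genes) and leaving out each library. Single values were compared by exact two-sided permutation tests, and shares have Wilson 95% intervals. Member sequences came from GENCODE 29. Named were the members, their transcripts with a mean count of at least 10, per list the 3 smallest p-values and any gene called, and per member 5 genes of like pattern. Members and lists were chosen with earlier results of these data known. The leave-one-out values of transcript shares were added after seeing the data.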

Additional observations from a re-analysis of the deposited data

How the results depend on the processing

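The directions of the RBM10, RBM5 and RBM6 fold changes were the same under all 14 alternatives, and RBM10 was called only with DESeq2 (-1.26) and without sh-NC replicate 2 (-1.42, adjusted p = 0.0487). Its adjusted p ranged from 0.00154 to 0.454, while its log2 fold change lay between -1.42 and -1.19 without single sh-NC replicates and between -1.43 and -1.17 without single shRBM10 libraries, with 37.2 to 44.4% remaining. With the GC trends removed 51.6% remained and the RBM5 to RBM10 difference was 1.06. The number of genes called was 2, and 573 with DESeq2, 31 with a filter of 1 count, 4 with the GC trends removed, 0 with library size only and 0 to 23 with a library left out (5 without sh-NC replicate 1, 23 without replicate 2 and 0 without any other library). Transcript usage was called in 8 genes, and in 5 with a filter of 1 count or with library size only, 0 with a filter of 10 counts in every library or with limma-voom, 6 to 14 without single sh-NC replicates (14 without replicate 2) and 5 to 6 without single shRBM10 libraries. DESeq2 called 3 of the member transcripts, where it called 1.96% of all transcripts it tested. These were NM_001204467, NM_005676 and NM_001349191, of which the last passed the filters on low counts only through the shRBM10 libraries. With edgeR 0 of the member transcripts were called in any setting run, and 0 of all transcripts in the fit of all 6 libraries with TMM. No paired analysis was possible because only 1 shRBM10 library can be matched to a replicate number. Groups of 3 limit the permutation tests to p = 0.1, and the low counts of single RBM6 transcripts limit their shares.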
